A study of Homo sapiens with 6 samples.

Results

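MYC and 44 genes of ribosome biogenesis were examined in KYSE150, a long-used human cell line from a squamous carcinoma of the esophagus, in 3 samples with a control hairpin (shCtrl) and 3 with a hairpin against the long noncoding RNA AC007128.1 (shAC007128.1). The 45 genes were chosen by name from the nucleolar, RNA polymerase I and ribosome assembly factors, with MYC and its partner MAX, and were looked up by Ensembl identifier in a table of 67140 identifiers. Each of the 45 was found and passed the filter on low counts, as 45 of the 19254 genes tested. Both groups carried a lentiviral hairpin, and each is 1 hairpin in 1 cell line. No source says whether the 3 samples of a group were separate cultures, so p-values measure the spread between these samples, which may be technical.

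The transcription factor MYC pairs with MAX and binds the E-box, the DNA word CACGTG, in the promoters of many growth genes. Ribosome assembly starts in the nucleolus, where RNA polymerase I copies the ribosomal DNA and box C/D and box H/ACA particles modify the precursor RNA. A large early complex, the small-subunit processome, folds and cleaves the small-subunit part, and other factors build the large subunit. Many of these assembly genes are known MYC targets, and their products are often abundant in carcinoma cells.

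Of the 45 genes, 5 were higher and 12 lower in shAC007128.1 at an adjusted p of at most 0.05 in edgeR's quasi-likelihood test, and 28 did not pass. Over all genes tested the shares were 21% higher and 19.8% lower, so 5 of 45 is a smaller share than the background and 12 of 45 a somewhat larger one. The count of 5 changed with the fit: without shAC007128.1 replicate 3, and also after GC content correction, 10 of 45 were higher. In those fits 15 and 16 were lower. The share over all genes was not taken in those fits, so their counts cannot be set against a background. With a 2-fold limit added, UTP20 was the 1 member called higher, where 5.57% of all genes were, and 0 members were called lower, where 10.1% were. At that limit DESeq2 also called 0 lower, and edgeR's unadjusted p under 0.05 gave 0, since no member had fallen by 2-fold. The median log2 fold change of the members was -0.06, beside -0.02 for all genes tested, and single members ran from -0.96 for PPAN to 1.72 for UTP20. In 7 members every shAC007128.1 sample lay above every shCtrl sample, and in 15 every one lay below, where 27% and 28.2% of all genes did so. MYC itself did not pass. Of the 17 members called, 7 lost the call in 3 to 5 of the 6 fits that each left out 1 sample, with edgeR adjusted p values from 0.0518 to 0.169: NOLC1 and NOP56 on the higher side and UTP4, DDX10, RRS1, PPAN and DDX21 on the lower side. The other 10 passed in all 6 of those fits.

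**Figure D1:**
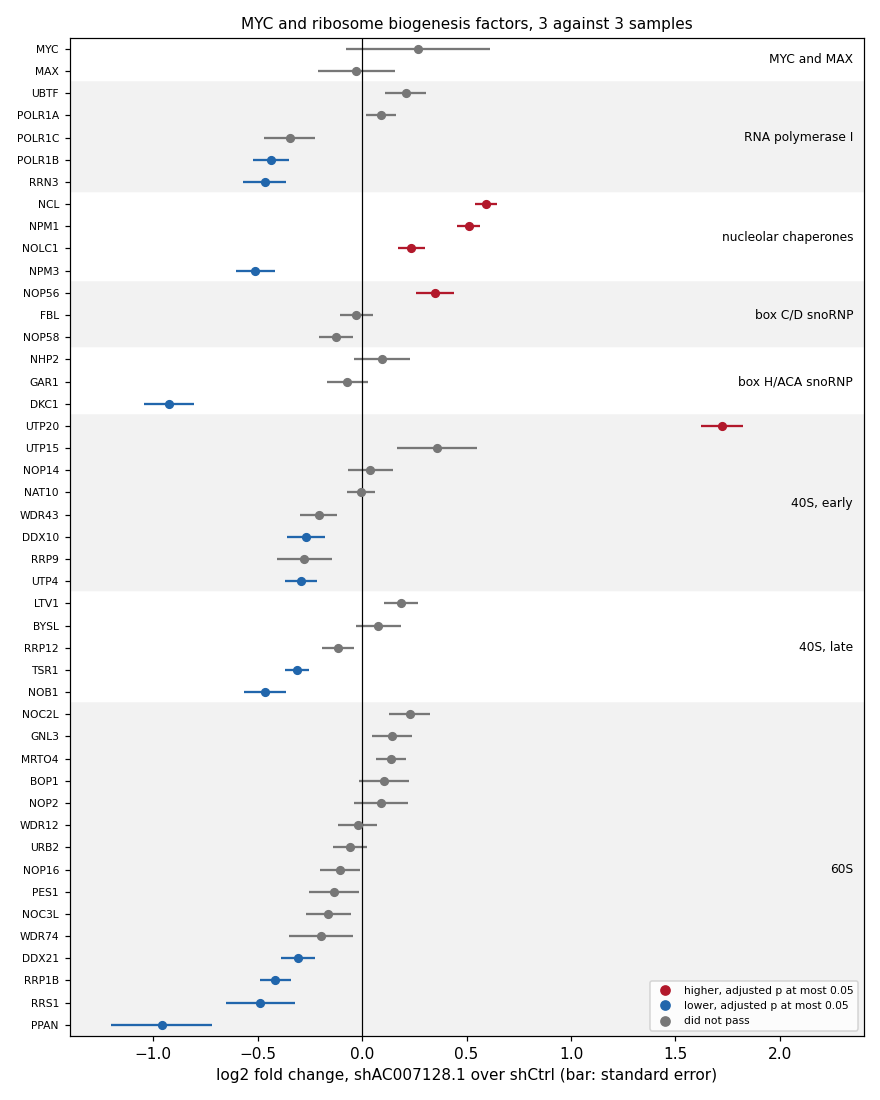
Log2 fold change of each of the 45 members (x axis, shAC007128.1 minus shCtrl; points with bars of 1 standard error), grouped by role on the y axis. UTP20 stands alone at 1.72, NCL and NPM1 follow at 0.59 and 0.51, and DKC1 and PPAN are lowest at -0.92 and -0.96.

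Total counts were 65140326 to 78610457 in shCtrl and 55764405 to 60158244 in shAC007128.1, and member counts in single samples ran from 330 to 82176. For the targeted gene AC007128.1, shCtrl samples held 69, 33 and 53 counts and shAC007128.1 samples 18, 37 and 15. Its log2 fold change was -0.77 with a standard error of 0.51 (edgeR adjusted p = 0.271), so a depletion was not detected in these samples and the groups overlapped. Counts this low limit the test, and the paper reports less AC007128.1 by qPCR in cells with its hairpin. Of 12 squamous markers all were tested, with 8 higher and 1 lower, and their summed level was 3278 to 3329 CPM in shCtrl and 4270 to 5102 CPM in shAC007128.1, CPM being counts scaled to a common library total with TMM factors. Of 12 markers of other cell types 8 passed the filter, and their summed level was 78.4 to 85.4 CPM in shCtrl and 36.1 to 42.4 CPM in shAC007128.1. In shCtrl most of that sum was CD68, a lysosomal protein used as a macrophage marker. CD68 was lower in shAC007128.1 (63.8 to 17.5 CPM), while COL1A1 was higher (13.9 to 17.5 CPM) and the other 6 tested did not pass. The leukocyte marker PTPRC was at a mean of 0.0313 CPM in shCtrl and 0.106 CPM in shAC007128.1, and the intestinal marker CDX2 was at 0 in every sample. Proliferation genes moved with the groups: 15 of 16 were higher, 12 of them over 2-fold, and their sum was 1530 to 1599 CPM in shCtrl against 3697 to 3785 CPM in shAC007128.1. The part of these lists in the member values was not tested.

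One library stood apart in a way that touched the members. For shAC007128.1 replicate 3, the difference of each member's log2 CPM from the mean of replicates 1 and 2 fell with the GC content of its transcript, with a Pearson r of -0.55 and a Spearman rho of -0.65 across 45 genes of that library. Across 11183 genes with a mean of at least 5 CPM the Pearson r was -0.46, while for the shCtrl samples it ran from -0.02 to 0.02. The same measure for shAC007128.1 replicates 1 and 2, each against the other samples of the group, was 0.32 and 0.25 across all those genes, with Spearman rho over the members of 0.55 and 0.51, on the opposite side to replicate 3, which enters their comparison. The 22 members of lower GC content, 37.7 to 48.8%, had a median difference of 0.17 in that sample, and the 23 of higher GC content, 49.3 to 65.6%, had -0.24. These genes share a library, its depth and its base composition, so the correlation is a description. Without this sample 10 members were higher and 15 lower, in place of 5 and 12, and all 17 were among them. The added ones were POLR1A, UBTF, NHP2, NOC2L and BOP1 on the higher side and NOP58, WDR43 and NOC3L on the lower side. A correction for GC content, added after the data were seen, gave 10 higher and 16 lower, and the part of GC content in the spread of the members was not tested further.

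**Figure D2:**
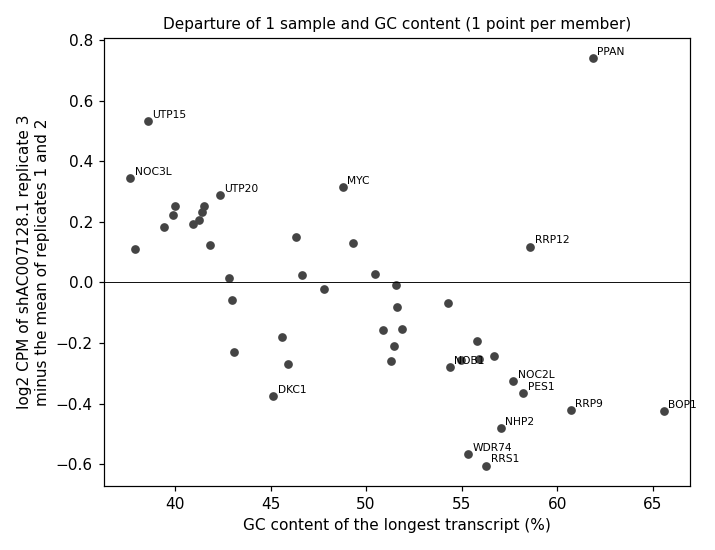
Difference of each member's log2 CPM in shAC007128.1 replicate 3 from the mean of replicates 1 and 2 (y axis) against the GC content of its longest transcript in percent (x axis). The points fall from left to right, with a Pearson r of -0.55 over 45 members, and PPAN lies apart at 0.74.

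The start-site sequences show which members carry a MYC-type E-box. RefSeq promoters on GRCh38.p14, from 250 bases before to 50 after each start, were at hand for 37 of the 45 members. The E-box CACGTG reads the same on both strands, and 13 of the 37 promoters (35.1%) held it, beside 7.2% of 34796 promoters in all and 9.65% of 11880 promoters of genes tested. In each of the 13 it began between 16 bases before and 36 bases after the start. In the window from 20 bases before to 40 after, set after these positions were seen, 13 of 37 members and 2.05% of the 11880 promoters had one. The 70 bases from 20 before to 50 after the start of these 13 are shown because this is where the E-box lies, in capitals, each sequence reading 5′ to 3′ along the gene.
UTP20, chr12:101280085-101280154, plus strand: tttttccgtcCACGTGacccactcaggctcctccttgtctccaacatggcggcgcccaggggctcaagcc
UTP4, chr16:69132629-69132698, plus strand: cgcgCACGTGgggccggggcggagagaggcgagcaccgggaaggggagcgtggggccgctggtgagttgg
FBL, chr19:39846330-39846399, minus strand: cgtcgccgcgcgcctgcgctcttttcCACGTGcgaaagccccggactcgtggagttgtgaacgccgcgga
WDR43, chr2:28894647-28894716, plus strand: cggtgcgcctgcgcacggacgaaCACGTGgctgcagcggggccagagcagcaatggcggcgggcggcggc
RRP9, chr3:51941855-51941924, minus strand: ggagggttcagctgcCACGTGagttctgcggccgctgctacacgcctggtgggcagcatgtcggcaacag
NOP14, chr4:2963357-2963426, minus strand: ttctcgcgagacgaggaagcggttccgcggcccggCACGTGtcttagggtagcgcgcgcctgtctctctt
NAT10, chr11:34105609-34105678, plus strand: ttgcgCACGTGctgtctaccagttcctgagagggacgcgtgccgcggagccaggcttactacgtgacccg
BYSL, chr6:41921479-41921548, plus strand: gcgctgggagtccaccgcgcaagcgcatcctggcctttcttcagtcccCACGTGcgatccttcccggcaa
LTV1, chr6:143843318-143843387, plus strand: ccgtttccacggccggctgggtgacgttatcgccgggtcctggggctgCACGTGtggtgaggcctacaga
NOP2, chr12:6568242-6568311, minus strand: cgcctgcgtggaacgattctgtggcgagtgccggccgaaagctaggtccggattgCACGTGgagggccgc
NOC3L, chr10:94362890-94362959, minus strand: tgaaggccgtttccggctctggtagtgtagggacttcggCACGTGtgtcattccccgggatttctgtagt
PES1, chr22:30591861-30591930, minus strand: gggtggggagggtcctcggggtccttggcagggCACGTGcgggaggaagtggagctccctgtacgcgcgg
MRTO4, chr1:19251785-19251854, plus strand: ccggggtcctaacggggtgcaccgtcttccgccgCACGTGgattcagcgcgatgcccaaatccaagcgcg

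Most members with this word near the start did not pass the test, and most genes tested did not either. Of the 13, UTP20 was higher, UTP4 lower and the other 11 did not pass. Over all genes tested, 21% were higher, 19.8% were lower and 11393 of 19254 did not pass. Calls and fold changes of the other tested genes with the word were not compared. The word was in 1 of 4 promoters of higher members, in 1 of 10 of lower members and in 11 of 23 of members that did not pass. The median log2 fold change was -0.01 for the 13 and -0.09 for the 24 without it. A match is a description of letters and not a bound site. For comparison, the same stretch is shown for the 7 other members that passed under every alternative run and had a promoter at hand, none of which held CACGTG in its 300 bases.
NCL, chr2:231464435-231464504, minus strand: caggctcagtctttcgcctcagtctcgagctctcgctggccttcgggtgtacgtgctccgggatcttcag
NPM1, chr5:171387829-171387898, plus strand: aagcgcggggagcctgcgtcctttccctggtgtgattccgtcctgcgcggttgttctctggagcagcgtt
NPM3, chr10:101783397-101783466, minus strand: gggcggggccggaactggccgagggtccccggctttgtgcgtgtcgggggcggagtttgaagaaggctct
DKC1, chrX:154762844-154762913, plus strand: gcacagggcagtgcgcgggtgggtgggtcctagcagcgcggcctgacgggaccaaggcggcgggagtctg
POLR1B, chr2:112542016-112542085, plus strand: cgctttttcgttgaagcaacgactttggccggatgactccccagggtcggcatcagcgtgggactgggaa
RRN3, chr16:15094286-15094355, minus strand: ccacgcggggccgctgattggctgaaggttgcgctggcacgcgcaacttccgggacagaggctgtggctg
NOB1, chr16:69754877-69754946, minus strand: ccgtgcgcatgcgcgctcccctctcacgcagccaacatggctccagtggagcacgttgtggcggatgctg

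The word CCGGAAG, the core bound by ETS factors, was searched on both strands and cannot overlap CACGTG. It was in 14 of the 37 member promoters (37.8%), beside 10.2% of all promoters and 18% of those of genes tested. Among members it was in 0 of 4 that were higher, 5 of 10 that were lower and 9 of 23 that did not pass. The median log2 fold change was -0.24 with it and 0.08 without it. The same split was not made over all genes tested, so nothing about the members is read from these calls and medians.

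MYC (ENSG00000136997, chromosome 8, 127735434 to 127742951, plus strand), the network's DNA-binding activator, was the member with the lowest level. It had 9.68, 9.30 and 11.04 CPM in the shCtrl samples and 17.4, 6.01 and 12.7 CPM in the shAC007128.1 samples. The control values lay close together while the shAC007128.1 values spread on both sides of them, with replicate 1 high and replicate 2 low. The means were 10.0 ± 0.916 CPM (SD, n = 3) and 12.05 ± 5.73 CPM (SD, n = 3). The log2 fold change was 0.27 with a standard error of 0.34 (edgeR adjusted p = 0.571). It was 0.59 without shAC007128.1 replicate 2, where it passed (edgeR adjusted p = 0.0485), and -0.09 without shAC007128.1 replicate 1 (edgeR adjusted p = 0.85), so a direction for MYC rests on single samples. Per kilobase of all annotated exons, MYC ranked 45 of 45 members in both groups. It was at 1.64 CPM per kb in shCtrl and 1.97 in shAC007128.1, and such ranks depend in part on the annotation.

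MAX, the partner through which MYC binds DNA, had 30.5, 40.4 and 32.4 CPM in shCtrl and 28.9, 42.9 and 29.4 CPM in shAC007128.1. Replicate 2 was the highest sample in each group and the groups overlapped. Its log2 fold change was -0.03 with a standard error of 0.18 (edgeR adjusted p = 0.916).

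**Figure D3:**
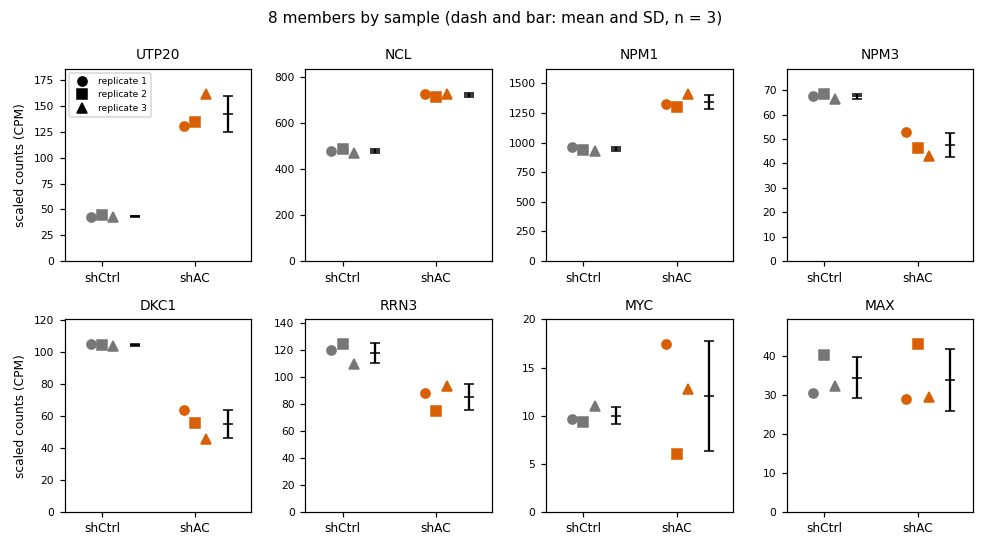
Scaled counts (y axis, CPM, from 0) of 8 members in each sample (x axis, shCtrl in grey and shAC007128.1, written shAC, in orange; circle, square and triangle are replicates 1, 2 and 3; dash and bar are the mean and SD). The groups are apart for UTP20, NCL, NPM1, NPM3, DKC1 and RRN3 and overlap for MYC and MAX.

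Of the RNA polymerase I genes, the initiation factor and a core subunit were lower, and 0 of 5 were higher in edgeR, at an unadjusted p under 0.05 (0 of 5) and in DESeq2 (0 of 5). Over all genes tested 21% were higher and 19.8% lower in edgeR, and 5 genes are too few to set against those shares. RRN3, which carries the polymerase to the ribosomal DNA promoter, had 121, 124 and 110.05 CPM in shCtrl and 88.1, 75.0 and 93.7 CPM in shAC007128.1. No shAC007128.1 sample reached the control range, and the mean was 72.3% of control. The log2 fold change was -0.47 with a standard error of 0.10 (edgeR adjusted p = 0.00948). POLR1B, the second-largest subunit of the enzyme, had 135, 156 and 144 CPM in shCtrl and 115, 102 and 104 CPM in shAC007128.1, again without overlap. The difference was -0.43 on the log2 scale with a standard error of 0.09 (edgeR adjusted p = 0.00619). POLR1C, a subunit shared with RNA polymerase III, had a log2 fold change of -0.35 and missed the threshold (edgeR adjusted p = 0.0563). It passed in 6 alternatives, DESeq2 among them (adjusted p = 0.0258), so DESeq2 and the unadjusted p each gave 3 of 5 lower. POLR1A, the largest subunit, and UBTF, which opens the ribosomal DNA for transcription, had 0.09 and 0.21 and did not pass. Both were called higher without shAC007128.1 replicate 3 and after GC content correction (edgeR adjusted p = 0.0434 and 0.00967 with the correction), so the 0 of 5 does not hold in every setting.

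Of the 4 nucleolar chaperones 3 were higher and 1 lower, beside 21% higher and 19.8% lower over all genes tested. A list of 4 is too small to set against those shares. NCL (ENSG00000115053), nucleolin, binds precursor rRNA, and it had 479, 487 and 470.2 CPM in shCtrl and 727, 711 and 726 CPM in shAC007128.1. Its groups were far apart and tight, at 479 ± 8.31 and 722 ± 8.81 CPM (SD, n = 3 each). The log2 fold change was 0.59 with a standard error of 0.05 (edgeR adjusted p = 0.000172). NPM1, nucleophosmin, is an abundant nucleolar chaperone with processed pseudogenes, between which and the gene reads can be split. It had 963, 942 and 927 CPM in shCtrl and 1322, 1299 and 1414 CPM in shAC007128.1, the highest counts of any member. Its log2 fold change was 0.51 with a standard error of 0.05 (edgeR adjusted p = 0.000419). NOLC1, which escorts snoRNA particles, had 245, 227 and 221 CPM in shCtrl and 268, 279 and 269 CPM in shAC007128.1. Its rise of 0.24 on the log2 scale was small and passed the test (edgeR adjusted p = 0.0248). NOLC1 lost the call in other settings, among them without shCtrl replicate 2 (edgeR adjusted p = 0.105) and with library size only (edgeR adjusted p = 0.0732).

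NPM3, a relative of NPM1 in the nucleoplasmin family, went the other way. Its samples, looked at singly after its value was seen, had 67.6, 68.5 and 66.5 CPM in shCtrl and 52.9, 46.2 and 43.2 CPM in shAC007128.1. The mean was 70.2% of control and the log2 fold change -0.51 with a standard error of 0.09 (edgeR adjusted p = 0.00466). The ratio of NPM1 to NPM3 counts within a sample was 14.2, 13.7 and 13.9 in shCtrl and 24.98, 28.1 and 32.7 in shAC007128.1. This ratio, chosen after its parts were seen, is not scaled by library size. The log2 difference of the ratio was 1.03 (exact permutation test, two-sided, p = 0.1), the smallest p that 3 samples against 3 allow.

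Of the snoRNA particle genes 1 core component rose and 1 fell, beside 21% higher and 19.8% lower over all genes tested. NOP56, a scaffold of the box C/D particle that methylates rRNA, had 132, 112 and 127 CPM in shCtrl and 167, 159.6 and 146 CPM in shAC007128.1. The groups did not overlap, and its log2 fold change was 0.35 with a standard error of 0.09 (edgeR adjusted p = 0.019). NOP58, its partner scaffold, had 105, 111 and 107 CPM in shCtrl and 94.7, 93.9 and 108 CPM in shAC007128.1, with overlap. Its log2 fold change was -0.13 (edgeR adjusted p = 0.259), and for FBL, the methyltransferase of the same particle, it was -0.03 (edgeR adjusted p = 0.811).

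DKC1 (ENSG00000130826, chromosome X, 154762742 to 154777689, plus strand) encodes dyskerin, the pseudouridine synthase of the box H/ACA particle and a part of telomerase. It had 104 CPM in each shCtrl sample and 63.3, 55.5 and 45.7 CPM in the shAC007128.1 samples. The means were 104 ± 0.441 and 54.8 ± 8.79 CPM (SD, n = 3 each), so that the level fell to 52.7% of control. The log2 fold change was -0.92 with a standard error of 0.12 (edgeR adjusted p = 0.000967), short of the 2-fold limit. NHP2, a core protein of the same particle, had 271, 266 and 249.6 CPM in shCtrl and 322, 297 and 222 CPM in shAC007128.1. Its replicate 3 lay below every control and the other 2 above, with a log2 fold change of 0.09 (edgeR adjusted p = 0.609). GAR1, the last core protein measured, had -0.07 (edgeR adjusted p = 0.607). The DKC1 to GAR1 ratio within a sample, also chosen after the values were seen, was 3.21 to 3.33 in shCtrl and 1.69 to 1.93 in shAC007128.1.

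UTP20 (ENSG00000120800, chromosome 12, 101280105 to 101386618, plus strand), a very large scaffold protein of the small-subunit processome, had the largest change of any member. It had 42.7, 44.2 and 42.7 CPM in shCtrl and 130.4, 135 and 162 CPM in shAC007128.1. Every shAC007128.1 sample was far above the controls, and the mean was 329.8% of control. The log2 fold change was 1.72 with a standard error of 0.10 (edgeR adjusted p = 4.28e-05). It was 1.61 without shAC007128.1 replicate 3 and 1.601 after GC content correction. Per kilobase of all annotated exons, its level went from 4.31 to 14.2 CPM per kb, and its rank among members from 42 to 31.

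None of the 7 other early small-subunit members was called higher, beside 21% higher and 19.8% lower over all genes tested. UTP15, of the complex that first binds the precursor, had 36.2, 27.7 and 29.0 CPM in shCtrl and 30.4, 38.8 and 49.7 CPM in shAC007128.1, and the groups overlapped (log2 fold change 0.36, edgeR adjusted p = 0.181). UTP4, of the same complex, was lower at -0.29 (edgeR adjusted p = 0.02), and the helicase gene DDX10 was lower at -0.27 (edgeR adjusted p = 0.0493). WDR43 (-0.21), RRP9 (-0.28), NOP14 (0.04) and NAT10 (-0.01), the last an RNA acetyltransferase, did not pass.

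Late small-subunit factors gave 2 lower members of 5, beside 19.8% lower over all genes tested, and nothing about the role is read from this count. NOB1, the endonuclease that makes the mature end of 18S rRNA, had 146, 142 and 135 CPM in shCtrl and 114, 104 and 89.6 CPM in shAC007128.1. Its log2 fold change was -0.46 with a standard error of 0.10 (edgeR adjusted p = 0.0085). TSR1, which holds the late pre-40S particle in an immature shape, had 328, 321 and 312 CPM in shCtrl and 256, 257 and 261 CPM in shAC007128.1. These groups were tight and did not overlap, with a log2 fold change of -0.31 (edgeR adjusted p = 0.00424). LTV1 (0.19), BYSL (0.08) and RRP12 (-0.11), which take part in pre-40S maturation or export, did not pass.

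**Figure D4:**
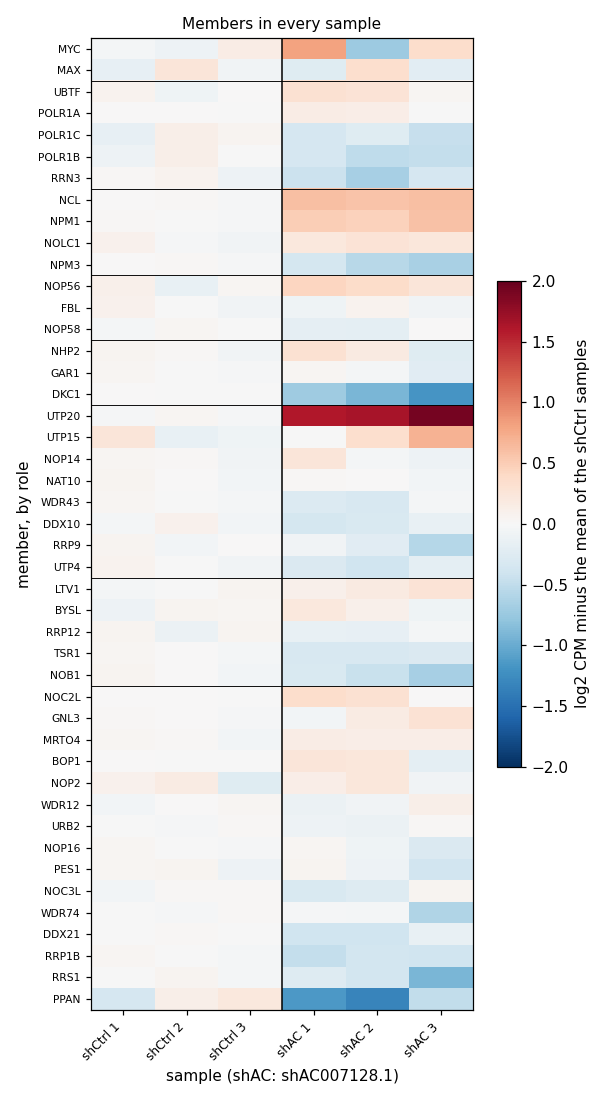
Each member's log2 CPM in each sample minus its mean over the shCtrl samples (colour, limits of ±2), with members in rows by role and the 6 samples in columns. UTP20 is the darkest row on the higher side, and DKC1 and PPAN stand out on the lower side.

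Of 15 large-subunit members 4 were lower and 0 higher in edgeR, beside 19.8% lower and 21% higher over all genes tested. At an unadjusted p under 0.05 or in DESeq2, 0 were higher. Other settings differed: NOC2L and BOP1 were higher without shAC007128.1 replicate 3. After GC content correction NOC2L, BOP1 and MRTO4 were higher (edgeR adjusted p = 0.00102, 0.00127 and 0.0356). PPAN, a large-subunit assembly gene, had 31.5, 43.3 and 45.9 CPM in shCtrl and 18.0, 15.8 and 28.2 CPM in shAC007128.1. No shAC007128.1 sample reached the controls, and the mean was 51.4% of control (log2 fold change -0.96, standard error 0.24, edgeR adjusted p = 0.0166). PPAN shares 1422 of its 2888 exonic bases with PPAN-P2RY11 and P2RY11 on the same strand, so its count is uncertain, and after GC content correction its value was -0.72 (edgeR adjusted p = 0.103). RRS1, which helps bring the 5S particle into the large subunit, had 72.3, 75.8 and 71.2 CPM in shCtrl and 60.9, 56.8 and 38.7 CPM in shAC007128.1. Replicate 3 was the lowest, and the log2 fold change was -0.49 with a standard error of 0.16 (edgeR adjusted p = 0.0488).

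RRP1B was lower at 74.9% of control, with a log2 fold change of -0.42 and a standard error of 0.07 (edgeR adjusted p = 0.00371). DDX21, a nucleolar RNA helicase, had 729.8, 751 and 732 CPM in shCtrl and 562, 559.8 and 668 CPM in shAC007128.1 and was lower by a log2 fold change of -0.31 (edgeR adjusted p = 0.0198). BOP1, PES1 and WDR12, whose products form 1 complex in large-subunit assembly, did not pass, with log2 fold changes of 0.10, -0.13 and -0.02. The 11 large-subunit members that did not pass ran from -0.20 for WDR74 to 0.23 for NOC2L. Among them GNL3, nucleostemin, had 0.14 and NOP2, an rRNA methyltransferase, had 0.09. MRTO4 had 0.14, NOP16 -0.11, NOC3L -0.16 and URB2 -0.06. Of all 45 members 19 share no exonic base with another gene, while 8 share over 20% (NHP2, NOP14, NOB1, LTV1, TSR1, NOP2, WDR74 and PPAN), and the use of strand in counting is not given in the sources used here.

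Per kilobase, the highest members in shCtrl were NHP2 at 178, NPM1 at 114 and DDX21 at 79.5 CPM per kb, where the median was 24.97. The length used joined all annotated exons of a gene, such as 8311 bases for NPM1, 6109 for MYC and 1476 for NHP2. Such a length can exceed that of the transcripts present, so ranks between members depend in part on the annotation. The summed CPM of the 45 members was 6557 to 6772 in shCtrl and 6989 to 7125 in shAC007128.1.

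Other genes of the pathway were called about as often as all genes were. Their lists were written by role, with earlier results of these data known. Over 5 lists of further polymerase I, snoRNA particle, small-subunit, large-subunit and exosome genes, 34 of 142 were higher, 26 lower and 82 did not pass, beside 21% higher and 19.8% lower in the background, and the median log2 fold change was 0.02. The counts of single lists that follow are small, and nothing is read from them beyond the named genes. The 48 further small-subunit genes gave 11 higher and 6 lower, and NOL11, of the early complex with UTP4 and UTP15, went from 48.0 to 117 CPM (log2 fold change 1.29, edgeR adjusted p = 0.00025). UTP14A of the same list fell from 70.7 to 38.7 CPM (-0.87, edgeR adjusted p = 0.000348), and the kinase gene RIOK1 was lower at -0.69. The 48 further large-subunit genes gave 12 higher and 14 lower, with DDX24 at 0.74, RSL1D1 at -0.63 and RPF2, a 5S particle factor, at -0.85. Of 17 further polymerase I genes 5 were higher and 4 lower, with TCOF1, treacle, at 0.83, POLR2K at 0.46 and TAF1A at -0.46. The 12 snoRNA particle genes gave 2 higher, the assembly factors NAF1 at 0.56 and RPAP3 at 0.57, while SHQ1, an assembly factor of dyskerin, had 0.40 (edgeR adjusted p = 0.0607). Of 17 exosome genes 4 were higher and 2 lower, with EXOSC10 at 0.92, EXOSC9 at 0.86 and MPHOSPH6 at 0.76.

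Outside ribosome assembly the MYC targets and proliferation genes had larger shares of higher calls than the background of 21%. These lists were chosen with earlier results of these data known, so the shares are descriptions and not a test. Of 20 MYC targets outside the nucleolus 14 were higher and 3 lower, with a median log2 fold change of 0.55. Among them TFRC, the transferrin receptor, went from 143 to 577 CPM (2.01, edgeR adjusted p = 1.6e-05), HSPD1 from 311 to 719 CPM (1.21) and CCND2, a D-type cyclin, from 648 to 377 CPM (-0.78). Of 16 further MYC network genes 7 were higher and 2 lower. MYCL, the MYC paralog, fell from 34.7 to 10.9 CPM (-1.68, edgeR adjusted p = 3.61e-05), and MLXIP and FBXW7, the latter a ubiquitin ligase subunit that acts on MYC protein, were higher at 0.79 and 0.84. Of 79 cytosolic ribosomal protein genes, whose reads can be split with pseudogenes, 6 were higher and 17 lower, with a median of -0.08. RPS26 had 1.05 and RPL28 -0.41. Of 16 proliferation genes the 3 with the smallest p were MCM6 at 1.95, PCNA at 1.64 and TYMS at 1.83, and the median of that list was 1.21.

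**Figure D5:**
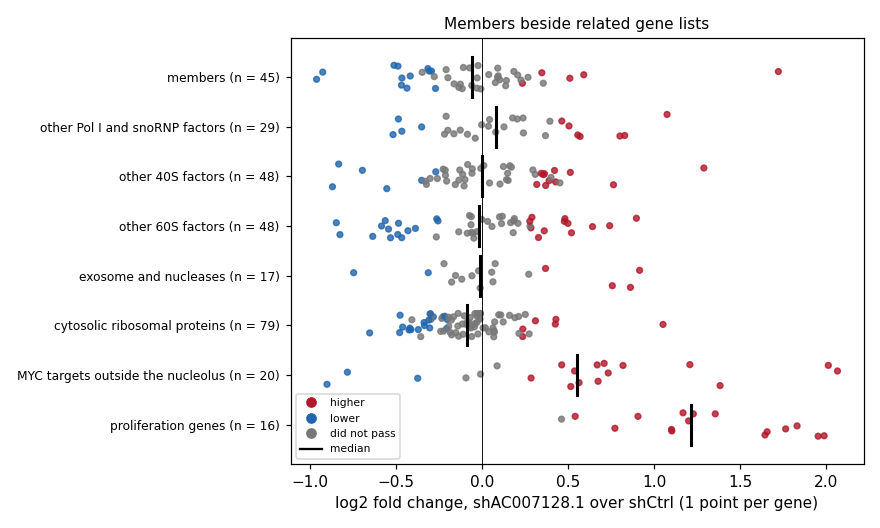
Log2 fold change (x axis, shAC007128.1 minus shCtrl) of the genes of each list named on the y axis, 1 point a gene, with the list's median marked. The proliferation genes lie highest, with a median of 1.21, and the 45 members centre at -0.06.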

How the data were processed

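RNA sequencing of KYSE150 cells (3 shCtrl and 3 shAC007128.1 samples) was used as deposited. The authors deposited 1 table of estimated counts, with Ensembl genes in rows, samples in columns, whole numbers and no normalization. The counting program, its annotation and its use of strand are not given in the sources used here. The submitters' processing notes name CASAVA 1.8 and TopHat2 2.0.6, and the paper's methods name another TopHat version. Low values pile up at multiples of 4. Groups and replicate numbers come from the sample titles, because the protocol texts do not separate the groups.

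GENCODE v44 on GRCh38 gave gene names and places (60357 of 67140 identifiers found). The filter was filterByExpr, which removed 47886 identifiers. The remaining 19254 genes were fitted after TMM scaling by the quasi-likelihood functions of edgeR 4.0.16 under R 4.3.3, with Benjamini-Hochberg adjustment over all of them. A gene passed at an adjusted p of at most 0.05, and the 2-fold call also needed a log2 fold change beyond 1 or -1. The standard error was taken from the fold change and the F statistic. CPM uses the same scaling, and 3 counts correspond to 0.0373 to 0.0546 CPM, which covers counting error only. Promoters are from RefSeq on GRCh38.p14, with none at hand for MYC, NOLC1, NOP58, RRP12, BOP1, RRP1B, RRS1 and URB2. The steps were tested on simulated counts. In edgeR 66.7% of genes planted at a log2 fold change of 1.5 in size passed, 86.2% at 3 and 0.0652% of unchanged genes. A gene that did not pass may therefore still have changed.

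The members and gene lists were chosen with earlier results of these data known. Values in every sample are given by a rule: MYC, MAX, the 2 members of each role with the largest change, and members that passed against the direction of most members. For each other list the 3 genes with the smallest p are named, except 1 gene that is not reported here. NPM3 and DDX21 in single samples, the ratios and the GC comparison were chosen after their values were seen. Alternatives were DESeq2 1.42.0, other scalings, other filters, a replicate block, counts divided by 4, leaving out the 20 genes with the most counts, glmTreat against a fold of 1.2, GC content correction (added after the data were seen) and each sample left out in turn.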

Additional observations from a re-analysis of the deposited data

How the results depend on the processing

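The counts of 5 higher and 12 lower members became 5 and 13 under DESeq2, its size factors, a minimum of 10 counts per sample, and counts divided by 4. They were 4 and 14 with library size only, 4 and 10 without the filter, 5 and 12 without the 20 most abundant genes, 3 and 7 with glmTreat, and 10 and 16 with GC content correction. Leaving out single samples gave 3 to 10 higher and 7 to 15 lower: 3 and 7 without shCtrl replicate 2, 3 and 8 without shCtrl replicate 3, 5 and 8 without shCtrl replicate 1, 4 and 9 without shAC007128.1 replicate 1, 4 and 7 without shAC007128.1 replicate 2, and 10 and 15 without shAC007128.1 replicate 3. With the 2-fold limit, 1 member was lower with library size only and without the filter, PPAN each time, and 0 to 1 when a sample was left out. NCL, NPM1 and UTP20 on the higher side and DKC1, NOB1, NPM3, POLR1B, RRN3 and RRP1B on the lower side passed in every setting run. POLR1C was lower in addition with DESeq2, its size factors, library size only, a minimum of 10 counts, counts divided by 4 and GC content correction (adjusted p from 0.0258 to 0.0497).

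With the replicate number as a block, 4 members were higher and 11 lower. The deviations of samples with the same number correlated at 0.031, -0.025 and -0.03. Taken over all genes tested at once, these values showed no pairing by number, but they cannot exclude one that touches single genes.

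The members' median of -0.06 was -0.13 with library size only (all genes -0.10), -0.10 without the filter (all genes -0.149), -0.0922 with a minimum of 10 counts (all genes 0.00316), -0.00269 with GC content correction (all genes -0.0405), and -0.0921 to -0.0299 when a sample was left out. Members lay above all genes without the filter, with GC content correction and without shAC007128.1 replicate 3 (-0.0299 against -0.0430), and below them otherwise. No member that passed changed sign. NOP14 was at -0.0339 with library size only and -0.00383 without the filter. With GC content correction MAX was at 0.0189, FBL at 0.0581, NAT10 at 0.0464 and RRP12 at 0.0436. Log2 fold changes that crossed 0 when a sample was left out ran from -0.0921 to 0.592 for MYC, -0.237 to 0.0980 for MAX, -0.0749 to 0.0150 for FBL, -0.0206 to 0.230 for NHP2, -0.0734 to 0.1004 for NOP14, -0.0366 to 0.0165 for NAT10, -0.0267 to 0.166 for NOP2 and -0.1097 to 0.0255 for WDR12. The causes were not tested.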

Other observations

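Among the MYC partners, MXD1 and MXI1, which pair with MAX in place of MYC, had 1 sample apart in each group, chosen here after the values were seen. MXD1 had 18.4, 76.9 and 14.1 CPM in shCtrl and 9.32, 47.7 and 7.86 CPM in shAC007128.1, with replicate 2 the highest in both (edgeR adjusted p = 0.528). MXI1 had 49.8, 20.3 and 49.2 CPM in shCtrl and 12.3, 29.3 and 13.7 CPM in shAC007128.1 (edgeR adjusted p = 0.0805), with replicate 2 apart in both groups but on opposite sides. MAX was also highest in replicate 2 of both groups, and MYC was lowest there in both, in shCtrl by little (9.30 beside 9.68 and 11.04 CPM). These genes were picked after their values were seen, so they cannot show a pairing by replicate number.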
